A study of Mus musculus with 11 samples.

Results

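YFP+ liver cells of mice on a cholestatic diet were compared with YFP+ liver cells of mice on a diet that injures hepatocytes. The comparison takes the 3 arrays labelled YFP+ DDC and the 3 labelled YFP+ CDE, 6 of the 11 arrays of the series, and leaves the 3 YFP- arrays out. The 2 arrays of untreated YFP+ cells (UTR) entered the fit to help estimate the spread, and their values are given beside the others. YFP, a yellow fluorescent protein, is the lineage label of the bile duct epithelium in this study, so the sort holds cells labelled as biliary and their descendants. All 3 groups carry that label and differ in diet. The labels give 5 weeks for the DDC diet and 4 mice, against 3 DDC arrays. The length of the CDE diet, the strain, the age of the mice and the hour at which livers were taken are not stated in the labels. Before the sort, per the labels' protocols, EGTA and collagenase were perfused through the liver, the remainder was digested again with pronase added, and live YFP+ cells were sorted from the non-parenchymal pellet with wild-type mice setting the gate. Whether each array had an animal of its own is not stated, so a p-value here reflects the spread among these arrays alone, and that spread may be technical.

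Cholangiocytes line the bile ducts, modify bile by transport of ions and water, and are the main cells of the ductular reaction, the expansion of small duct-like structures in injured liver. DDC makes the liver form porphyrin that plugs small ducts and gives a cholangitis, so the biliary cells are themselves close to the site of damage. CDE lacks choline and contains ethionine, which gives fatty hepatocytes that die, with a ductular reaction spreading into the parenchyma. Injured biliary cells are known to secrete chemokines that draw neutrophils and monocytes, and hepatocytes are the usual source of hepcidin, the hormone that lowers iron export into blood.

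Promoter sequences are shown here for genes on which the results below turn: the chemokines Cxcl1, Cxcl2 and Cxcl3, higher on DDC, and a clock gene. Cxcl5, which was also higher, has no entry in the promoter table. They are windows of 30 bases from the RefSeq promoters of assembly GRCm38.p6 (250 bases before to 50 bases after each gene start), read on the gene's own strand, and capitals mark the searched motif. The motif GGGNNTTTCC, of the kind bound by NF-kB factors, was found in 1.63% of all 32851 promoter windows, searching both strands. The chemokine windows lie at chr5:90891164-90891193 (Cxcl1), chr5:90903792-90903821 (Cxcl2) and chr5:90786018-90786047 (Cxcl3), all on the plus strand.
Cxcl1: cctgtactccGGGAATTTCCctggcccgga
Cxcl2: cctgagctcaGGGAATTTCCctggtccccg
Cxcl3: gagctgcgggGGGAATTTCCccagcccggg
The motif begins at positions -71, -97 and -73 from the start in these 3 windows, and Cxcl1 and Cxcl2 each hold another match nearby. For the clock, the D-box TTANGTAA (2.32% of promoters) occurred in 1 of the 7 clock genes searched, Per3, and the E-box CACGTG (7.15% of promoters) in 3 of them, Tef, Bhlhe41 and Ciart. A D-box window of Per3 lies at chr4:151044852-151044881 on the minus strand.
Per3: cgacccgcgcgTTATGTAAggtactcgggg
Such a match describes the sequence and does not show that a factor binds there.

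Expression was read as the log2 value of each gene on an Affymetrix whole-transcript mouse array, and differences are DDC minus CDE on that scale with the SE of the limma fit. Rises and falls on DDC are meant against CDE throughout, not against untreated cells. Of 23185 genes tested, 269 passed an adjusted p of 0.05 (limma, Benjamini-Hochberg over all genes), which is 1.16%. There were 97 genes higher on DDC (0.418%) and 172 lower (0.742%), and 41 of the higher and 58 of the lower genes moved by more than 1 log2 unit. At an unadjusted p under 0.05 there were 3555 genes. The median difference over all genes was 0.01. The 3 DDC and 3 CDE arrays did not overlap for 9.64% of genes on the higher side and 10.6% on the lower side, and all 269 called genes were among these. Arrays of the same diet correlated across genes at 0.9893 to 0.9911 (CDE) and 0.9855 to 0.9879 (DDC), against 0.9799 to 0.9831 between the diets. The number of arrays limits the precision: leaving out any 1 of the 6 diet arrays lowered the count to between 16 (without CDE replicate 3) and 123 (without CDE replicate 2), and to 25, 41, 56 and 98 without CDE replicate 1 and DDC replicates 1, 2 and 3. Only 10 of the 269 genes kept their call in all 8 fits that left out an array. With quantile normalization the split was 130 higher and 141 lower.

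**Figure D1:**
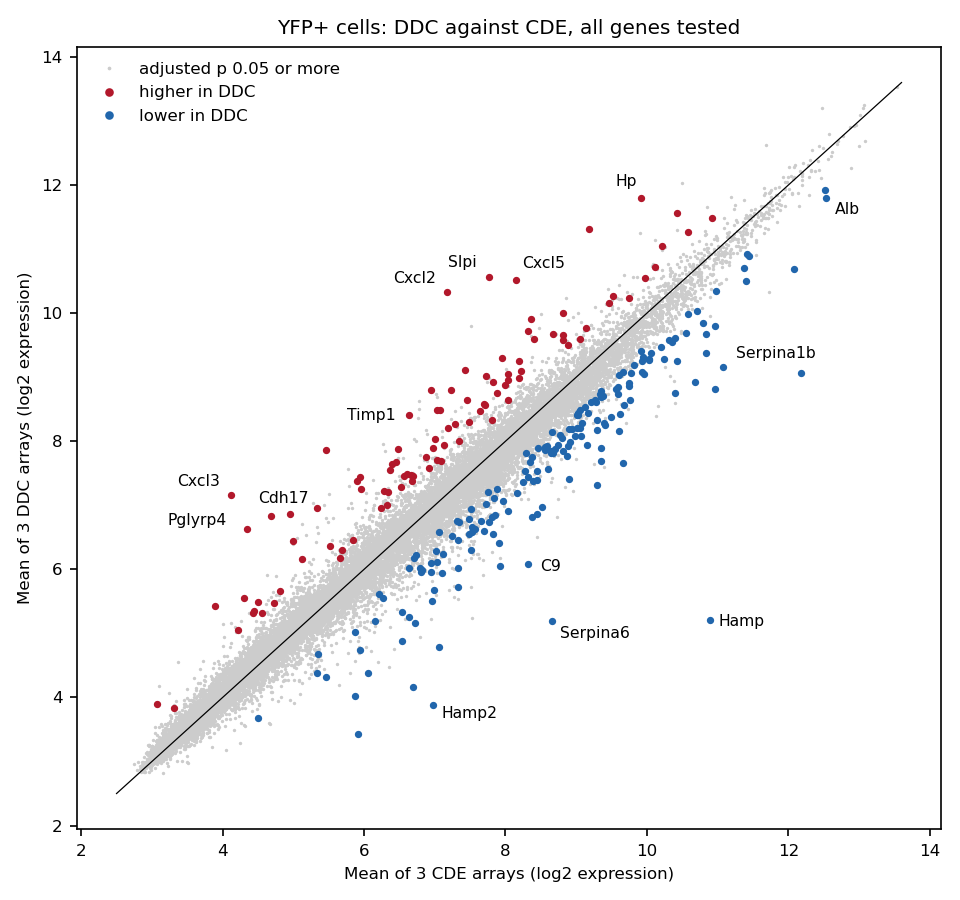
Mean log2 expression of each of the 23185 genes on the 3 CDE arrays (horizontal) and the 3 DDC arrays (vertical); the line marks equal values, red points passed the test as higher on DDC (97 genes) and blue points as lower (172 genes). Hamp lies farthest below the line and Cxcl2 and Cxcl3 farthest above it.

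The untreated arrays were set beside both diets for the called genes. Among the 97 genes higher on DDC, the UTR mean lay nearer the CDE mean in 80 and nearer the DDC mean in 17, and it was nearer CDE in 57.2% of all genes with a difference above 0. Among the 172 lower genes it lay nearer CDE in 123 and nearer DDC in 49, against 53.1% nearer CDE among all genes with a difference below 0. It lay outside both diet means for 25 of the higher and 29 of the lower genes. These positions are descriptions of 2 UTR arrays that both diets share, and do not show on which diet a gene changed.

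The cells of both diets carried the transcripts that define bile duct epithelium. Core markers lay close, while several other members were higher on the DDC arrays without passing the test. Krt19, a keratin of the simple epithelium of ducts, read 10.11, 10.19 and 10.45 on CDE and 10.34, 10.58 and 10.51 on DDC, with overlapping arrays. Epcam, the epithelial adhesion molecule, differed by 0.05 ± 0.09 and Sox9, the duct transcription factor, by -0.04 ± 0.11 (adjusted p = 0.863 and 0.899). Krt7, another duct keratin, was at 0.61 ± 0.15 without passing (adjusted p = 0.111). Of 27 measured biliary identity genes, 1 passed, the membrane mucin Muc1 (0.69 ± 0.12, adjusted p = 0.0403), and 22 had a difference above 0, with a median of 0.18, against 53% of all genes above 0. The arrays did not overlap for 11 of the 27 on the higher side, where 9.64% of all genes did not, and for 1 on the lower side, and 8 were higher and 0 lower at an unadjusted p under 0.05. Not passing with arrays apart were, among others, the claudin Cldn4 at 1.28 ± 0.32, the epithelial factor Elf3 at 0.70 ± 0.20, the secretin receptor Sctr at 0.65 ± 0.18, the chloride channel Cftr at 0.55 ± 0.19 and the mucosal glycoprotein Dmbt1 at 1.73 ± 1.00 (adjusted p = 0.109, 0.149, 0.138, 0.226 and 0.458). Muc1 read 10.34, 10.70 and 10.69 on CDE, 11.25, 11.23 and 11.31 on DDC and 11.16 and 11.32 on UTR, so the CDE arrays were the low ones. Its call was lost without any 1 of the 8 arrays (adjusted p up to 0.111).

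The list of neutrophil-attracting CXC chemokines had the highest median difference of the 44 gene lists, which were chosen with earlier results of these data known. Cxcl2 was 8.93-fold, Cxcl3 8.25-fold, Cxcl5 5.12-fold and Cxcl1 2.53-fold higher than on CDE, and 4 of the 7 members of the neutrophil-attracting list passed, with a list median of 1.34. That is 57.1% of the list, against 1.16% of all genes. Cxcl2 read 7.20, 6.94 and 7.40 on CDE, 10.81, 10.46 and 9.75 on DDC and 7.11 and 6.10 on UTR, a difference of 3.16 ± 0.32 (adjusted p = 0.0107). CDE and UTR lay together and every DDC array lay above both. Cxcl3 read 3.87, 4.02 and 4.47 on CDE, 8.02, 6.86 and 6.61 on DDC and 4.09 and 4.11 on UTR (3.04 ± 0.34, adjusted p = 0.0139). On 2 of its 3 CDE arrays it fell under the lower quartile of all genes, so its fold may be understated.

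Cxcl5, which epithelial cells secrete, had another pattern. It read 7.84, 8.25 and 8.37 on CDE, 10.41, 10.59 and 10.53 on DDC and 8.54 and 9.89 on UTR (2.36 ± 0.31, adjusted p = 0.0199). Both UTR arrays lay between the diets, and they differed from each other by more than the arrays of either diet did. Cxcl1 read 7.93, 7.83 and 8.10 on CDE, 9.64, 9.18 and 9.06 on DDC and 7.91 and 7.44 on UTR (1.34 ± 0.18, adjusted p = 0.0224). The other 3 members, the platelet chemokines Pf4 and Ppbp and the lung-type Cxcl15, were at 0.50, 0.03 and 0.14 and did not pass. Cxcl2 and Cxcl3 lost their calls without CDE replicate 1 or 3 (adjusted p up to 0.0566 and 0.0641), Cxcl5 without any 1 of the 6 diet arrays (up to 0.0816) and Cxcl1 without any 1 of them except DDC replicate 3 (up to 0.0923). Their differences stayed at 2.92 or more, 2.61 or more, 2.20 or more and 1.17 or more.

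No chemokine of the monocyte and lymphocyte list passed (0 of 17 with limma, with 5 higher and 1 lower at an unadjusted p under 0.05, and a median of 0.23). The monocyte attractants of that list were nevertheless apart on the diet arrays. Ccl2 read 10.70, 10.01 and 10.78 on CDE and 12.05, 11.95 and 12.10 on DDC (1.54 ± 0.58, adjusted p = 0.265), and Ccl7 differed by 1.66 ± 0.38 (adjusted p = 0.0902). The UTR arrays read 11.56 and 8.82 for Ccl2 and 7.82 and 6.28 for Ccl7, and this distance enters the spread of the fit. In the fit of the 6 diet arrays alone Ccl2, Ccl7 and Ccl20, a ligand of CCR6, passed (adjusted p = 0.0303, 0.0372 and 0.0303). That fit also dropped calls of other lists, as given in the section on processing.

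Cytokine genes and targets of NF-kB had 2 of 23 members higher and 0 lower, with a median of 0.36. That is 8.7% called, against 1.16% of all genes. Tnf, the inflammatory cytokine, rose by 1.40 ± 0.25 (adjusted p = 0.0460) and Icam1, the adhesion molecule that leukocytes bind, by 0.92 ± 0.16 (adjusted p = 0.0404). Tnf read 7.87, 8.42 and 8.68 on CDE, 9.95, 9.72 and 9.48 on DDC and 8.57 and 7.86 on UTR. Icam1 read 8.16, 8.08 and 7.87 on CDE and 8.65, 9.06 and 9.15 on DDC. The Tnf call was lost without any 1 of the 6 diet arrays (adjusted p up to 0.139) and that of Icam1 without any 1 of the 8 arrays (up to 0.151). Cd14, the lipopolysaccharide co-receptor of monocytes, which epithelial cells can also express, rose by 1.13 ± 0.18 (adjusted p = 0.0341). Lipopolysaccharide binding protein, Lbp, which hands the ligand to Cd14, rose by 1.56 ± 0.16 (adjusted p = 0.0119) and read 8.15, 8.20 and 8.72 on CDE, 9.72, 10.03 and 9.99 on DDC and 9.67 and 9.69 on UTR. For Lbp the CDE arrays were the low group and UTR lay beside DDC. The Cd14 call was lost without any 1 of the 6 diet arrays (up to 0.122) and the Lbp call without CDE replicate 1 (0.0506).

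Genes of mucosal defence were higher on DDC in 4 of 28 cases and lower in 0, with 20 above 0 and a median of 0.25. Called members made up 14.3% of the list, against 1.16% of all genes, and 53% of all genes lay above 0. The antiprotease of mucous secretions Slpi was 6.91-fold higher and read 7.04, 8.76 and 7.51 on CDE, 10.65, 10.82 and 10.21 on DDC and 9.04 and 7.48 on UTR (2.79 ± 0.50, adjusted p = 0.0453). The DDC arrays lay together while the CDE arrays spread over more than a log2 unit, with replicate 2 highest. Pglyrp4, which recognises bacterial peptidoglycan, rose by 2.29 ± 0.27 (adjusted p = 0.0141). It was under the lower quartile on 2 of 3 CDE arrays, so its rise may be understated. Nos2, the inducible nitric oxide synthase, read 6.07, 6.01 and 5.73 on CDE, 7.57, 7.51 and 7.23 on DDC and 5.47 and 6.08 on UTR (1.50 ± 0.18, adjusted p = 0.0152). The fourth was Muc1. Slpi lost its call without CDE replicate 1 or 3 or any DDC array (adjusted p up to 0.166), and Pglyrp4 and Nos2 without CDE replicate 1 or 3 or DDC replicate 1 or 2 (up to 0.0685 and 0.0702). Pigr, the receptor that carries immunoglobulin A into bile, ran the other way, at 7.65, 7.99 and 6.93 on CDE and 5.34, 5.17 and 5.21 on DDC. Its UTR arrays read 6.58 and 9.91, its difference of -2.28 ± 0.71 did not pass with them in the fit (adjusted p = 0.182), and it passed in the fit of the 6 diet arrays (adjusted p = 0.0208).

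Of 20 acute phase genes, 3 rose and 0 fell, with 11 above 0 and a median of 0.03, so the list as a whole lay at the median of all genes. Its called share was 15%, against 1.16% of all genes. Hp, haptoglobin, which binds free haemoglobin, read 9.56, 10.58 and 9.60 on CDE, 11.59, 12.03 and 11.77 on DDC and 8.75 and 8.24 on UTR (1.88 ± 0.28, adjusted p = 0.0280). Both diets lay above UTR for Hp, DDC by more. Steap4, a metalloreductase, rose by 1.85 ± 0.24 (adjusted p = 0.0184), and the other was Lbp. The serum amyloid genes Saa1, Saa2 and Saa3 were at 0.11, 0.03 and 0.02. The fibrinogen chain Fgb read 10.81, 9.73 and 10.16 on DDC and 7.72, 11.22 and 7.62 on CDE, so CDE replicate 2 lay above all 3 DDC arrays. Without CDE replicate 2 the list had 6 members higher and a median of 0.28. Hp lost its call without CDE replicate 1 or 3 or any DDC array (adjusted p up to 0.111) and Steap4 without CDE replicate 1 or 3 or DDC replicate 1 or 2 (up to 0.0703).

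Components of the epithelial basement membrane were higher on DDC in 3 of 20 cases and lower in 0, with 17 above 0 and a median of 0.29. Called members made up 15% of the list, against 1.16% of all genes, and 53% of all genes lay above 0. Lamb3, the beta chain of the laminin that anchors hemidesmosomes, read 6.92, 7.12 and 7.20 on CDE, 8.33, 8.48 and 8.64 on DDC and 7.56 and 7.20 on UTR (1.41 ± 0.13, adjusted p = 0.0103). All DDC arrays lay more than a log2 unit above the highest CDE array, and the call held in every fit that left out an array, with differences of 1.33 to 1.48. Lama5, a laminin alpha chain of basement membranes, rose by 0.88 ± 0.15 (adjusted p = 0.0396) and Agrn, the proteoglycan agrin, by 0.57 ± 0.10 (adjusted p = 0.0386). The partner chain of Lamb3, Lama3, was at 0.20 (adjusted p = 0.549), and its receptor chains Itga6 and Itgb4 were at -0.02 and 0.37. The call of Lama5 was lost without any 1 of the 8 arrays (adjusted p up to 0.141) and that of Agrn without any 1 of the 6 diet arrays (up to 0.139). Of the remaining matrix lists, 0 of 21 collagens and 0 of 17 integrins passed with limma (1 and 4 at an unadjusted p under 0.05), with medians of 0.12 and 0.06.

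Timp1, the inhibitor of matrix metalloproteinases, was 3.40-fold higher on DDC and was the sole member to pass among 21 matrix proteases and inhibitors. It read 6.54, 6.69 and 6.68 on CDE, 8.42, 8.64 and 8.15 on DDC and 6.49 and 6.28 on UTR (1.77 ± 0.14, adjusted p = 0.00716), so CDE and UTR lay together below DDC. Its call held in every fit that left out an array. Plat, the tissue plasminogen activator, rose by 1.45 ± 0.23 (adjusted p = 0.0355), and this call was lost without CDE replicate 1 or 3 or any DDC array (up to 0.124).

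Among junction genes, Cdh17, the liver-intestine cadherin, was 4.46-fold higher on DDC. It read 4.40, 5.13 and 4.52 on CDE, 6.89, 7.11 and 6.52 on DDC and 4.19 and 4.10 on UTR (2.16 ± 0.21, adjusted p = 0.0103). DDC was the group apart, and the call was lost without CDE replicate 3 (0.0577). Jup, plakoglobin of desmosomes and adherens junctions, rose by 0.61 ± 0.10 (adjusted p = 0.0355), the other called member of 17 desmosome and cadherin genes. Called members made up 11.8% of that list, against 1.16% of all genes. In the claudin list 1 of 23 passed, Cldn2, which forms a pore for cations and water (0.89 ± 0.12, adjusted p = 0.0234). Jup lost its call without any 1 of the 8 arrays (adjusted p up to 0.136) and Cldn2 without CDE replicate 1 or 3 or any DDC array (up to 0.0984). Of 13 keratins 0 passed (6 at an unadjusted p under 0.05), with a median of 0.22, and the most distant were Krt17 at -0.78 and Krt80 at 0.72.

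Other large rises on DDC were of S100b, a calcium-binding protein, at 5.33, 5.40 and 5.66 on CDE, 7.45, 7.81 and 8.34 on DDC and 6.84 and 7.69 on UTR (2.41 ± 0.27, adjusted p = 0.0139). The UTR arrays lay nearer DDC, so CDE was the low group. Gabrp, a subunit of the GABA-A receptor that occurs in epithelia, rose by 2.14 ± 0.32 and Ctla2a, a cysteine protease inhibitor, by 1.92 ± 0.32 (adjusted p = 0.0280 and 0.0391). Ahnak2, a large scaffold protein chosen here after its values were seen, rose by 1.48 ± 0.14 (adjusted p = 0.0103) and kept its call in every fit that left out an array. The progenitor and oncofetal list had 2 of 20 higher and 1 lower: Cd44, the hyaluronan receptor, rose by 0.75 ± 0.11 (adjusted p = 0.0293), Vtcn1, a B7 family molecule, by 0.70 ± 0.12 (0.0404), and Gpc3, a glypican of fetal liver, fell by 1.67 on the log2 scale (± 0.18, adjusted p = 0.0120). Together they are 15% of that list, against 1.16% of all genes. Hbegf, a ligand of the EGF receptor, rose by 1.20 ± 0.16 (adjusted p = 0.0214), 1 of 20 in its list. S100b, Gabrp, Ctla2a, Cd44, Vtcn1, Gpc3 and Hbegf each lost their call without 2 or more of the arrays left out in turn (adjusted p up to 0.144).

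**Figure D2:**
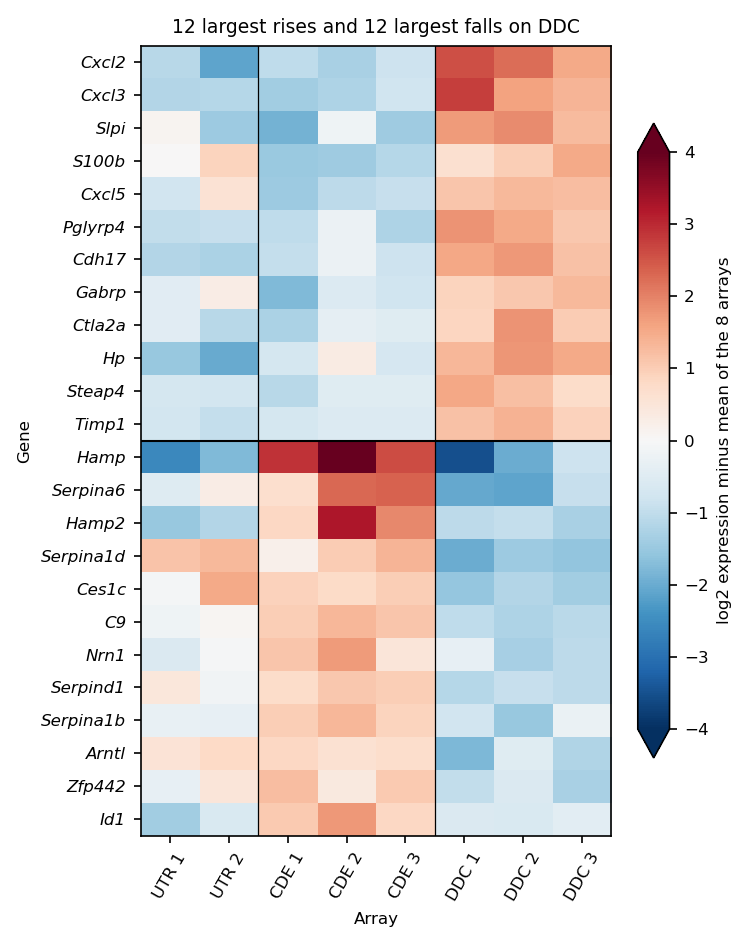
Each gene's log2 expression on 8 arrays (columns) minus its mean over them, for the 12 largest called rises (upper block) and 12 largest called falls (lower block) on DDC; colours beyond 4 are clipped. Several rises, such as S100b and Cxcl5, have an untreated array on the DDC side, while Hamp and Hamp2 are high on the 3 CDE arrays and low on the other 5.

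The largest fall on DDC against CDE was that of hepcidin. Hamp read 10.21, 12.52 and 9.93 on CDE, 3.82, 5.33 and 6.48 on DDC and 4.75 and 5.57 on UTR. By the group means it was 51.2-fold higher on CDE than on DDC (-5.68 ± 0.81, adjusted p = 0.0247). This fold is imprecise, since the arrays of each diet spread widely and DDC replicate 1 lay under the lower quartile of all genes. The DDC and UTR arrays overlapped and the 3 CDE arrays lay far above both. Without CDE replicate 2, its highest array, the difference was -4.86 (adjusted p = 0.0422). Its paralog Hamp2 read 5.82, 8.22 and 6.89 on CDE, 3.93, 4.03 and 3.67 on DDC and 3.46 and 3.80 on UTR (-3.10 ± 0.50, adjusted p = 0.0355). All DDC and UTR arrays lay under the lower quartile of all genes, so its difference may be understated. The transcripts of Hamp and Hamp2 are alike, and how far probes of either gene read the other was not tested.

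Hepcidin is known to be induced by BMP ligands through SMAD proteins, and Id1, another BMP responder, was also higher on CDE. Id1, an inhibitor of helix-loop-helix factors, read 10.52, 11.20 and 10.31 on CDE, 8.88, 8.85 and 9.04 on DDC and 8.06 and 8.85 on UTR (-1.75 ± 0.26, adjusted p = 0.0280). Every CDE array lay above every DDC and UTR array. The 2 genes next to it in the list by size, named after their values were seen, were Atoh8 at -1.54 ± 0.30 (adjusted p = 0.0583) and Id3 at -1.22 ± 0.24 (0.0599). Neither passed in the fit with UTR, and both passed in the 6 diet arrays (0.0413 and 0.0394). Bmp7, a BMP ligand, fell by 0.92 on the log2 scale (± 0.15, adjusted p = 0.0379), from 7.23, 7.78 and 7.44 on CDE to 6.36, 6.66 and 6.65 on DDC, with UTR at 7.56 and 7.64. For Bmp7 the UTR arrays lay with CDE, unlike Hamp and Id1. In all, 4 of 28 genes of the hepcidin and BMP list were lower on DDC and 0 higher, with a median of -0.15. That is 14.3% called, against 1.16% of all genes, and the 4 include both paralogs Hamp and Hamp2. Arrays did not overlap for 10 on the lower side and 3 on the higher side, against 10.6% and 9.64% of all genes. The feedback inhibitors Smad6 and Smad7 were at -0.66 and -0.16 and Id2 at 0.06. In the 6 diet arrays alone Hamp2 and Bmp7 did not pass (limma, adjusted p = 0.0565 and 0.0574). Hamp lost its call without CDE replicate 1 or 3 or DDC replicate 1 or 2 (adjusted p up to 0.0816), Id1 without CDE replicate 1 or 3 or any DDC array (up to 0.0975), Hamp2 without CDE replicate 3, any DDC array or either UTR array (up to 0.124) and Bmp7 without any 1 of the 8 (up to 0.127).

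**Figure D3:**
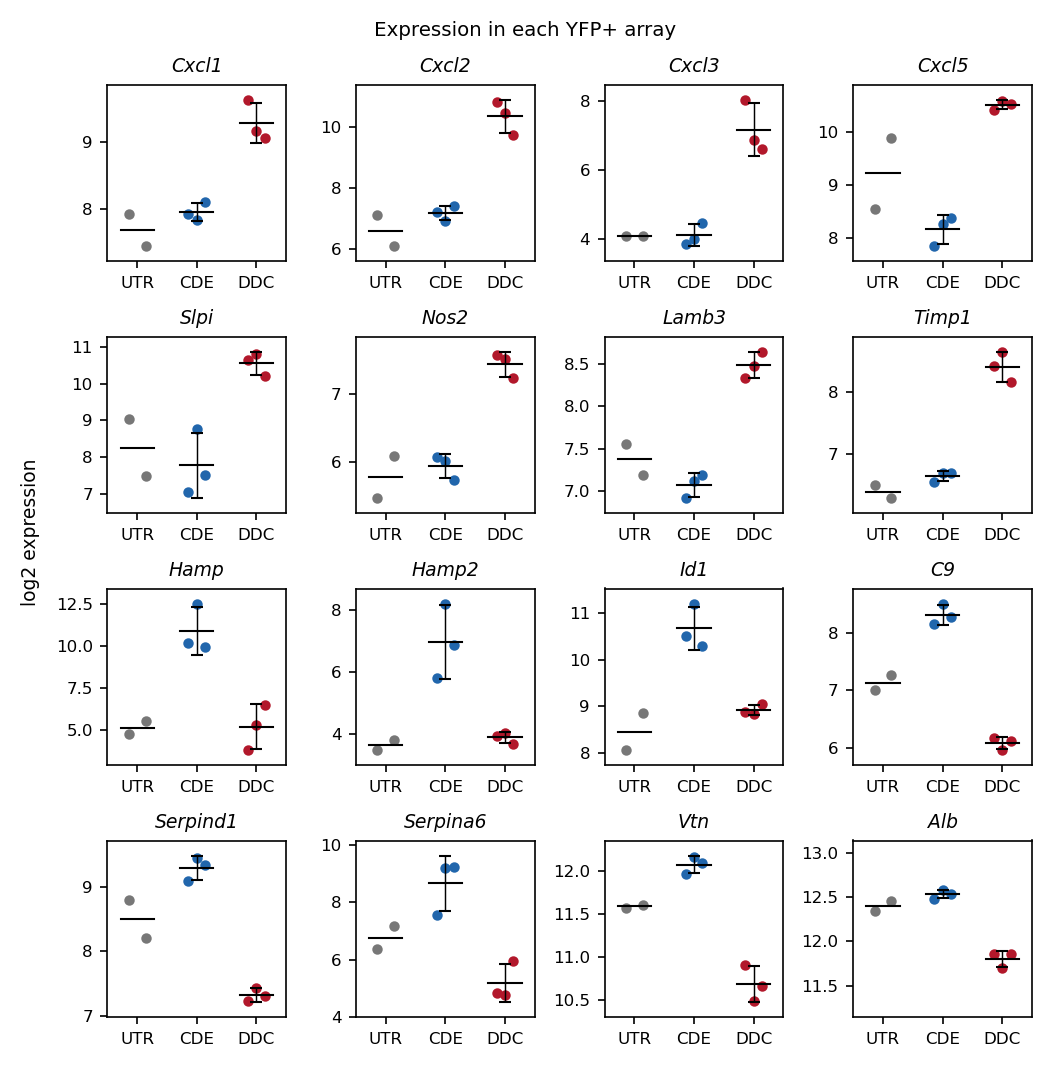
Log2 expression of 16 genes on each YFP+ array (points; UTR grey, CDE blue, DDC red), with group means as horizontal bars and the SD of the 3 arrays as error bars for CDE and DDC; the vertical scale differs between panels. Cxcl2, Cxcl3 and Timp1 are apart on DDC, Hamp, Hamp2 and Id1 are apart on CDE, and for C9, Serpind1 and Serpina6 the untreated arrays lie between the diets.

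C9, the last component of the complement membrane attack complex, fell on DDC with the lowest p of all genes. It read 8.16, 8.51 and 8.29 on CDE, 6.16, 5.96 and 6.12 on DDC and 7.13 ± 0.18 (mean and SD, n = 2) on UTR (-2.24 ± 0.12, adjusted p = 0.00167). The 3 groups did not overlap, with UTR between the diets, and the difference stayed between -2.14 and -2.32 in the fits that left out an array. Serpind1, heparin cofactor II, read 9.09, 9.45 and 9.34 on CDE, 7.22, 7.44 and 7.30 on DDC and 8.80 and 8.21 on UTR (-1.97 ± 0.17, adjusted p = 0.0103). Vtn, vitronectin, chosen after its values were seen, fell from 11.96, 12.16 and 12.10 to 10.90, 10.49 and 10.66 (-1.39 ± 0.12, adjusted p = 0.0103). C9, Serpind1 and Vtn kept their calls in every fit that left out an array.

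Serpina6, the corticosteroid carrier of plasma, was 11.0-fold higher on CDE and read 7.55, 9.17 and 9.23 there, 4.84, 4.76 and 5.96 on DDC and 6.35 and 7.17 on UTR (-3.46 ± 0.50, adjusted p = 0.0269). UTR lay between the diets. The alpha-1-antitrypsin paralogs Serpina1b and Serpina1d were lower, at -1.91 and -2.52 (adjusted p = 0.0280 and 0.0125). Serpina1d read 6.03, 6.86 and 7.17 on CDE, 3.86, 4.38 and 4.26 on DDC and 6.97 and 7.12 on UTR, so DDC was the low group. On DDC, 2 of its arrays lay under the lower quartile, so its difference may be understated. These paralogs are near-identical copies, and probes that read more than 1 of them make their separate levels uncertain. Ces1c, a carboxylesterase, fell by 2.27 (adjusted p = 0.0297) and Nrn1, neuritin, by 2.00 (0.0407). Serpina6 lost its call without CDE replicate 2 or 3 or DDC replicate 1 or 2 (up to 0.102), Serpina1b without any CDE array or DDC replicate 1 (up to 0.105), Serpina1d without CDE replicate 3 or DDC replicate 1 (up to 0.0566), Ces1c without any 1 of the 6 diet arrays (up to 0.119) and Nrn1 without any 1 of the 8 (up to 0.141).

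Of 34 complement and coagulation genes, C9 and the anticoagulant protease precursor Proc (-0.91 ± 0.12, adjusted p = 0.0219) were lower and Plat was higher, with a median of -0.06. That is 8.82% called, against 1.16% of all genes. The Proc call was lost without any 1 of the diet arrays except DDC replicate 3 (up to 0.0821). The arrays did not overlap for 7 members on the lower side, where 10.6% of all genes did not. On the higher side they did not overlap for 3, where 9.64% of all genes did not. At an unadjusted p under 0.05, 6 were lower and 4 higher. Plasminogen, Plg, prothrombin, F2, the complement protease C1ra and the clotting inhibitor Tfpi were at -1.80, -0.72, -0.68 and -0.47 with arrays apart and did not pass (adjusted p = 0.231, 0.117, 0.117 and 0.157). The urokinase gene Plau was at 1.51 (adjusted p = 0.107), and the factors F7 and F10 were at 0.03 and 0.18.

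Hepatocyte genes are given beside these falls, since the proteins of C9, Serpind1 and the Serpina genes above are known mainly as hepatocyte products. Of 24 measured hepatocyte genes 1 passed, albumin, Alb, which read 12.48, 12.58 and 12.54 on CDE, 11.85, 11.70 and 11.86 on DDC and 12.34 and 12.45 on UTR (-0.73 ± 0.09, adjusted p = 0.0162). Its call was lost without CDE replicate 1 or 3 or DDC replicate 1 or 2 (up to 0.0722). Differences were below 0 in 22 of 24, with a median of -0.29, while 53% of all genes lay above 0. The arrays did not overlap for 7 of the 24 on the lower side, where 10.6% of all genes did not, and for 1 on the higher side. At an unadjusted p under 0.05, 5 were lower and 0 higher. The mean level over the list was 6.80 to 7.31 on CDE, 6.56 to 6.66 on DDC and 6.61 to 6.82 on UTR, and the highest of these was CDE replicate 2. Without that array the median was -0.08. Apoc3 and Apoa1, apolipoproteins, read 7.80 and 8.81 on CDE replicate 2, against 5.41 and 5.84 and 6.48 and 6.39 on the other CDE arrays. The defining hepatocyte genes Ttr, Hnf4a, Apob and Cps1 were at -0.40, 0.30, -0.10 and -0.07 and did not pass. Among them the Ttr arrays were apart, with DDC lower, and the arrays of the others overlapped. Without CDE replicate 2 the differences of C9, Serpind1, Vtn and Alb were -2.14, -1.89, -1.35 and -0.71. These genes, Hamp, Hamp2 and Serpina1d stayed called. Serpina6, Serpina1b, Ces1c and Proc lost their calls, at -3.20, -1.78, -2.33 and -0.83 (limma, adjusted p = 0.0741, 0.0756, 0.0744 and 0.0594). The part of hepatocyte RNA in the falls on DDC was not tested. In RNA from sorted cells, fewer cells of a type and less RNA per cell cannot be told apart.

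Clock genes differed in both directions. The transcriptional activators Arntl (BMAL1) and Npas2, which pair to switch on clock targets, fell on DDC, while targets and repressors rose. Arntl read 8.02, 7.81 and 7.93 on CDE, 5.41, 6.74 and 6.02 on DDC and 7.75 and 8.01 on UTR (-1.86 ± 0.29, adjusted p = 0.0303). Npas2 read 8.50, 8.06 and 8.76 on CDE, 6.72, 6.96 and 6.90 on DDC and 8.32 and 8.61 on UTR (-1.58 ± 0.18, adjusted p = 0.0140). Rora, a nuclear receptor that drives Arntl, fell by 0.57 (adjusted p = 0.0294). For all 3, CDE and UTR lay together and DDC below.

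The clock genes that rose were the repressors Per3 (1.18 ± 0.14, adjusted p = 0.0152), Per2 (0.86 ± 0.14, 0.0372) and Bhlhe41 (1.45 ± 0.18, 0.0173) and the D-box factors Dbp (1.18 ± 0.17, 0.0277) and Tef (1.22 ± 0.20, 0.0367). Per3 read 6.25, 6.59 and 6.27 on CDE, 7.61, 7.31 and 7.72 on DDC and 6.51 and 6.64 on UTR. Dbp read 7.40, 7.72 and 7.25 on CDE, 8.64, 8.45 and 8.83 on DDC and 7.72 and 8.20 on UTR. In neither gene did the diets overlap, and UTR lay nearer CDE in Per3 and between the diets in Dbp. In all 5 of 18 clock genes were higher and 3 lower, 44.4% of the list against 1.16% of all genes. The arrays did not overlap for 8 on the higher side and 4 on the lower side, against 9.64% and 10.6% of all genes. Not passing were Clock at -0.36, Per1 at -0.13, Nr1d1 at 0.67, Cry2 at 0.75 and Ciart at 0.66. The count of called clock genes was 6 without either UTR array, 0 without CDE replicate 1 and 0 without DDC replicate 1, 1 without CDE replicate 3, and 3 or 4 without CDE replicate 2 or DDC replicate 2 or 3. Clock transcripts are known to cycle over the day, and the hour of sampling is not stated in the labels.

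**Figure D4:**
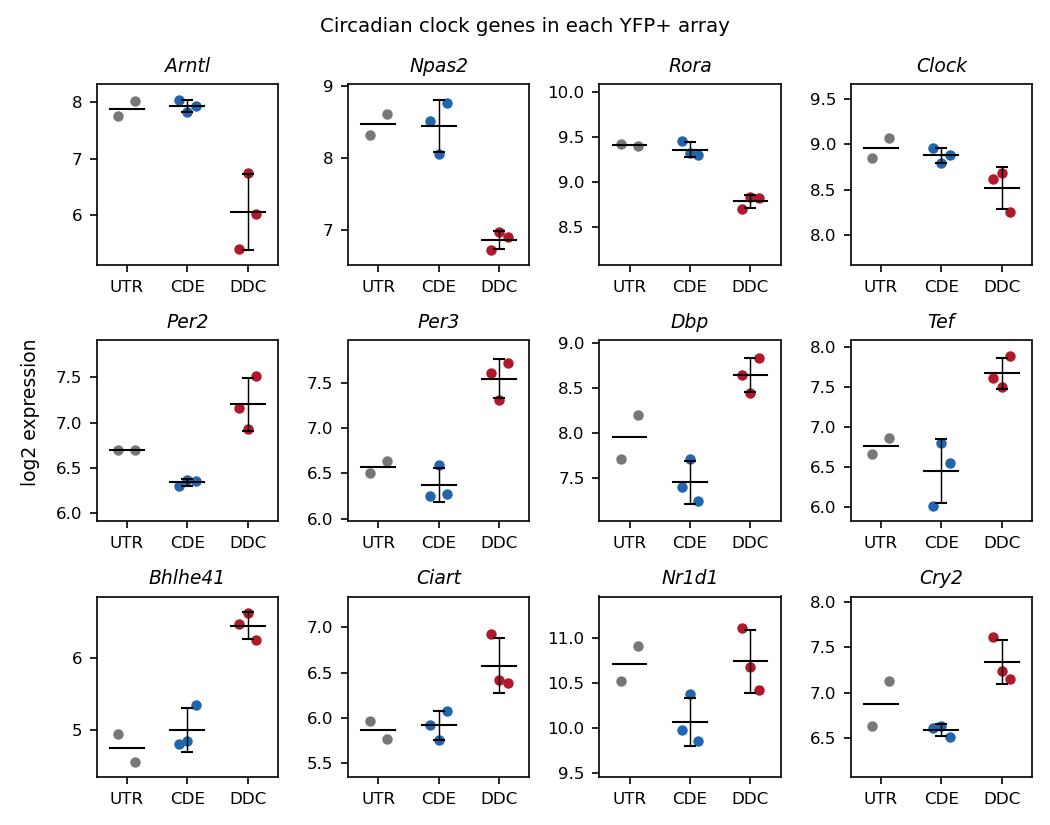
Log2 expression of 12 circadian clock genes on each YFP+ array (points; UTR grey, CDE blue, DDC red), with group means as bars and the SD of the 3 arrays as error bars for CDE and DDC; the vertical scale differs between panels. Arntl, Npas2 and Rora are low on DDC alone, and Per2, Per3, Dbp, Tef and Bhlhe41 are high on DDC.

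Genes of cell division had differences above 0 without single genes of mitosis passing. In the mitosis list 29 of 29 differences were above 0, against 53% of all genes, with a median of 0.54. The arrays did not overlap in 13, all on the higher side, where 9.64% of all genes did not. With limma 0 passed at an adjusted p of 0.05, while 19 had an unadjusted p under 0.05. Kif23, a kinesin of the dividing midbody, differed by 1.44 ± 0.36 (adjusted p = 0.112), Top2a, a topoisomerase of replicating chromosomes, by 1.40 ± 0.45 (0.193), and the proliferation antigen Mki67, named after its values were seen, by 1.27 ± 0.29 (0.0844). Mki67 read 5.45, 6.38 and 6.56 on CDE, 7.04, 7.47 and 7.69 on DDC and 6.14 and 6.08 on UTR. The mean level of the list was 5.08 to 5.47 on CDE, 5.53 to 6.10 on DDC and 5.18 to 5.20 on UTR. In the S phase list 1 of 29 passed, Uhrf1, which maintains DNA methylation (0.80 ± 0.13, adjusted p = 0.0396, lost without any 1 of the 8 arrays, up to 0.11), and 27 lay above 0 with a median of 0.24.

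Immediate early genes, which respond within minutes to stress and also to tissue dissociation, were higher in 3 of 29 cases, with 27 above 0 and a median of 0.50. Called members were 10.3% of the list, against 1.16% of all genes. The arrays did not overlap for 11 on the higher side, where 9.64% of all genes did not, and for 0 on the lower side. At an unadjusted p under 0.05, 16 were higher and 0 lower. Klf4, an epithelial transcription factor, rose by 1.31 ± 0.21 (adjusted p = 0.0355), the stress gene Ier3 by 0.83 ± 0.13 (0.0358) and Egr3 by 0.60 ± 0.10 (0.0405). All 3 calls were lost without any 1 of 6 or more arrays (adjusted p up to 0.149). The classical members Fos, Jun and Egr1 were at 0.96, 0.07 and 0.29 and did not pass. The list mean was 7.99 to 8.14 on CDE, 8.27 to 8.93 on DDC and 8.16 to 8.37 on UTR. Its part in the rise of the chemokines was not tested.

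Interferon-induced genes ran the other way: 2 of 29 were lower on DDC and 0 higher, 27 differences were below 0, and the median was -0.30. That is 6.9% called, against 1.16% of all genes, of which 53% lay above 0. The arrays did not overlap for 13 on the lower side, where 10.6% of all genes did not, and for 1 on the higher side. Ifit2, an antiviral RNA-binding protein, fell by 0.86 (± 0.15, adjusted p = 0.0396) and the tetherin gene Bst2 by 0.67 (± 0.10, 0.0280), and both calls were lost without any 1 of the 6 diet arrays (up to 0.144). Of 26 sterol and fatty acid synthesis genes 1 was lower, the desaturase Sc5d (-0.58 ± 0.10, adjusted p = 0.0404, lost without any 1 of the 8 arrays, up to 0.144), with 22 below 0 and a median of -0.34. Its UTR values of 9.68 and 9.64 lay near CDE (9.58, 9.61 and 9.79) and above DDC (9.20, 9.04 and 9.01).

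Fmo2, a flavin monooxygenase, was the sole called member of 34 cytochrome and conjugation genes (-1.46 ± 0.18, adjusted p = 0.0184), and Gstk1, a mitochondrial glutathione transferase, of 25 NRF2 and glutathione genes (-1.05 ± 0.13, 0.0169). Lifr, the receptor of leukaemia inhibitory factor, fell by 0.90 (± 0.15, 0.0403), 1 of 16 in the IL-6 family list. Fmo2, Gstk1 and Lifr lost their calls without any 1 of 5 or 6 arrays (up to 0.148). Lists in which 0 members passed with limma, and 4 to 10 had an unadjusted p under 0.05, were those of Notch (19 genes, median 0.14), Wnt (25, 0.12), YAP targets (22, 0.03), the TGF-beta axis (18, 0.20), the TNF superfamily (19, 0.24), bile and ion transport (27, 0.11), p53 targets (21, 0.33), the unfolded protein response (23, 0.05), the primary cilium (22, -0.17) and mesenchymal transition (16, 0.17). Heme genes had 1 of 17 called, Hp.

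**Figure D5:**
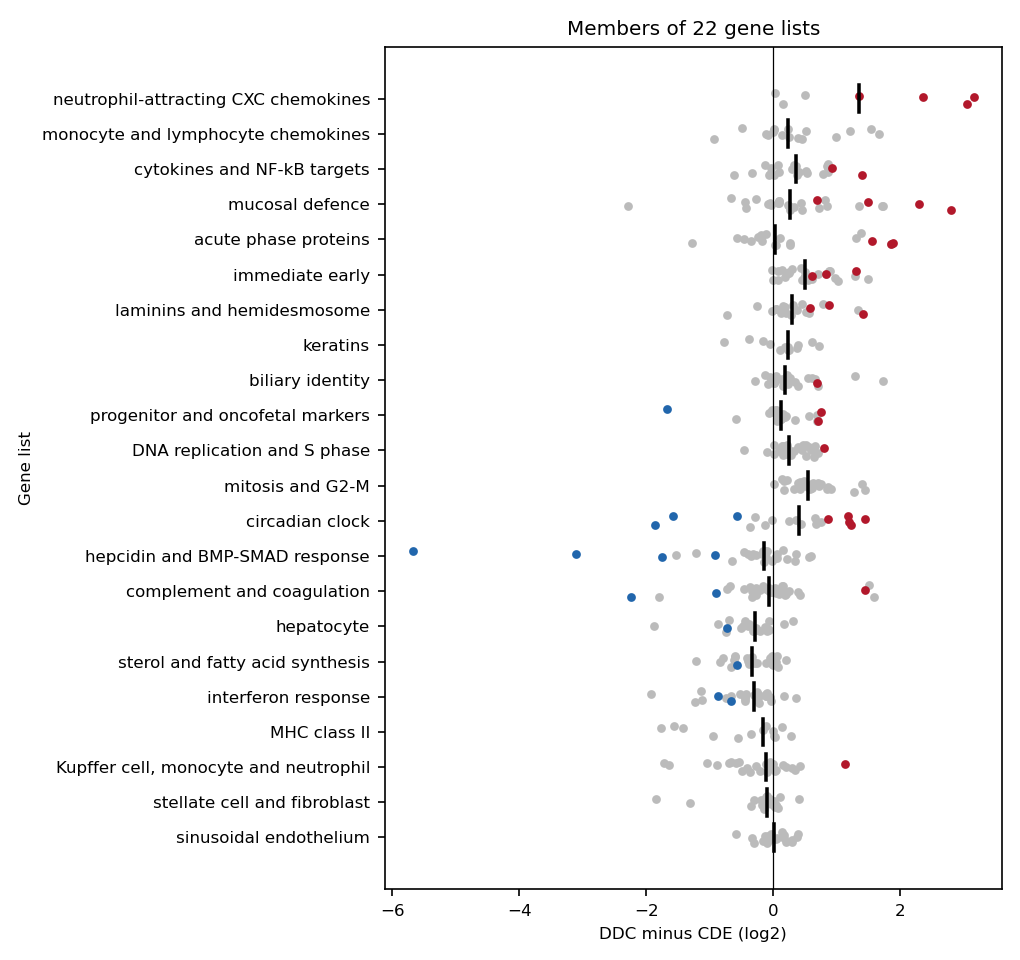
Difference DDC minus CDE (log2, horizontal) of each measured member of 22 gene lists (rows); red and blue points passed the test, grey points did not, and black bars mark list medians. The neutrophil chemokines reach a median of 1.34, the hepcidin list holds the largest fall, and members of the mitosis list lie above 0 without a called gene.

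Markers of other liver cells were measured in the same arrays. Of 27 Kupffer cell, monocyte and neutrophil genes, Cd14 alone passed, and 19 lay below 0 with a median of -0.11. The arrays did not overlap for 4 on the higher side and 4 on the lower side, against 9.64% and 10.6% of all genes. At an unadjusted p under 0.05, 5 were higher and 6 lower. The list mean was 5.53, 5.98 and 6.27 on CDE, 5.48 to 5.78 on DDC and 5.86 and 5.88 on UTR, so the diets overlapped. The highest was CDE replicate 3, where the macrophage genes Adgre1 and C1qc read 6.66 and 8.36, against 4.32 to 5.09 and 6.56 to 6.91 on the other CDE arrays and 4.36 to 4.82 and 5.05 to 6.20 on DDC. The MHC class II list behaved likewise, with H2-Aa at 6.28, 7.85 and 8.92 on CDE and 5.61 to 6.27 on DDC (-1.78, adjusted p = 0.186) and 0 of 13 called. The leukocyte antigen Ptprc read 4.51 to 5.34 on DDC and 4.83 to 5.51 on CDE, and the neutrophil gene Ly6g 4.11 to 4.41 and 3.98 to 4.02. For Ly6g the DDC arrays thus lay above the CDE arrays, at readings near or under the lower quartile of all genes. In the lymphocyte list 0 of 19 passed (list mean 4.46 to 4.62 on CDE and 4.47 to 4.61 on DDC), in the endothelial list 0 of 20 (5.16 to 5.38 and 5.18 to 5.43), in the stellate cell and fibroblast list 0 of 20 (5.25 to 5.56 and 5.18 to 5.27) and in the erythroid and platelet list 0 of 9 (4.84 to 4.97 and 4.84 to 5.41). The part of these cells in the called differences was not tested.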

How the data were processed

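The authors deposited log2 expression, 1 value per feature and array, from Affymetrix whole-transcript mouse arrays. Base 2 is inferred from their range, and for background correction, normalization and probe summary the method is not given in the sources used here. Array medians ran from 5.679 to 5.761 and lower quartiles from 4.275 to 4.38. Of 25206 features, 23185 have 1 gene symbol in the platform annotation, 0 have several and 2021 are unnamed here. The named genes all matched RefSeq GRCm38.p6 by gene number. The model was lmFit and eBayes without trend (limma 3.58.1, R 4.3.3), fitted on 8 YFP+ arrays in 3 groups, with 5 residual degrees of freedom. Tests were two-sided with Benjamini-Hochberg adjustment. The fit was tested on simulated data.

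The members and the 44 gene lists (906 of 955 symbols measured, the other 49 not analysed here) were chosen with earlier results of these data known. Named genes are the 12 largest called rises and falls whose arrays do not overlap (small RNAs, receptor segments and predicted genes left out), up to 4 called members of each list, or up to 2 where none passed, fixed markers and paralogs. Others, among them Ccl20, Pigr, Fgb, Saa1 to Saa3, Pf4, Lama3, Apoc3, Adgre1, C1qc, Per2, Tef, Rora and the list members given as not passing, were chosen after their values were seen. The alternatives were other sets of arrays, scalings, a filter on low values, a mean-variance trend, array weights, a replicate block, a minimum change and leaving out each array. Some items are not reported here.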

Additional observations from a re-analysis of the deposited data

How the results depend on the processing

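The count of 269 called genes was 211 in the 6 diet arrays (169 of the same genes), 271 after quantile normalization, 257 with each array centred on its median, 256 with a trend, 301 with array weights, 377 among the genes above the median level (121 higher, 256 lower) and 305 over all features, the last chosen after seeing the data. It was 1 in all 11 arrays (1792 at an unadjusted p under 0.05, lowest adjusted p 0.0326), 3 against a minimum change of 0.5, and 16 to 211 without 1 array. The cause was not tested. Without either UTR array the fit equals that of the 6 diet arrays, since a lone array adds nothing to the spread. Of 130 genes followed, 19 lost their call in the 6 diet arrays and 7 gained one. Among those lost were Muc1, Icam1, Hamp2, Bmp7, Lama5, Klf4, Per2 and Tef (limma, adjusted p = 0.0575, 0.0535, 0.0565, 0.0574, 0.0608, 0.0548, 0.0574 and 0.0565).

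Deviations from the group means correlated at 0.0453, -0.0722 and 0.0264 between CDE and DDC arrays of the same replicate number. Between arrays of different numbers they correlated at -0.127 to 0.112. With so few arrays these values cannot show whether the replicate numbers pair them. With the replicate number as a block the count was 61 (24 higher, 37 lower).

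Signs turned only for genes near 0: Sox9 was at 0.024 after quantile normalization, and without 1 array it ran from -0.128 to 0.036 (0.036 without CDE replicate 1, 0.013 without DDC replicate 1). Epcam ran from -0.016 (without CDE replicate 1) to 0.107. Of 78 called genes followed, 8 kept their call in all fits without 1 array.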

Other observations

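Several families were looked at after their values were seen, and are given as counts. Small nuclear and nucleolar RNAs, which guide RNA processing, had 5 of 112 lower on DDC and 0 higher, with a median of -0.01. This is 4.46%, against 1.16% of all genes called. Rnu7, the U7 RNA that trims histone transcripts, read 5.82, 6.20 and 5.74 on CDE, 3.24, 3.56 and 3.48 on DDC and 4.10 and 3.83 on UTR (-2.50 ± 0.15, adjusted p = 0.0017, limma). All DDC and UTR arrays lay under the lower quartile of all genes, so the difference may be understated. Snord13, the U13 RNA, read 12.11, 12.27 and 12.15 on CDE against 10.35, 8.90 and 7.94 on DDC and 11.30 and 9.95 on UTR (-3.11 ± 0.57, adjusted p = 0.0476). Rnu3a, Snord118 and Snord34 were the other 3 (-2.15, -1.64 and -1.37). Snord13 lost its call without any 1 of the diet arrays except DDC replicate 1 (adjusted p with limma up to 0.159). The other 3 each lost theirs without any 1 of 5 arrays (up to 0.102).

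Zinc finger genes named Zfp and a number had 12 of 373 lower and 0 higher, 3.22% against 1.16% of all genes, with 249 below 0 and a median of -0.12. The largest fall among them was Zfp442, at 6.20, 5.36 and 6.03 on CDE, 3.98, 4.39 and 3.68 on DDC and 4.65 and 5.47 on UTR (-1.85 ± 0.29, adjusted p = 0.0350, limma). On 2 of the 3 DDC arrays it lay under the lower quartile, so the difference may be understated. Its call was lost without CDE replicate 1 or 3 or any DDC array (adjusted p up to 0.132).

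Mitochondrial and peroxisomal genes mostly had differences below 0. Among all genes 0.742% were called lower on DDC and 53% had a difference above 0. Fatty acid oxidation had 3 of 30 lower, the thioesterase Acot1 (-1.12 ± 0.19), catalase, Cat (-0.62 ± 0.11), and the isomerase Ech1 (-0.67 ± 0.11), with 28 below 0 and a median of -0.36. Acot1 read 9.48, 9.71 and 10.10 on CDE, 8.73, 8.34 and 8.84 on DDC and 9.10 and 9.31 on UTR. Subunits of complex I named Nduf had 0 of 35 called and 33 below 0 (median -0.20), and mitochondrial ribosomal proteins had 3 of 76 lower and 64 below 0 (median -0.22). Cytosolic ribosomal proteins had 1 of 57 lower and a median of -0.14. Of the 97 genes higher on DDC, 34 belong to at least 1 of the 44 gene lists, and of the 172 lower genes 17 do, the families of this section not counted.

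Kctd12, Hnrnph3 and Ccdc163 were the lower genes outside the lists that, beside Vtn, Serpind1 and Rnu7, kept their call in every fit without 1 array (-1.55, -1.18 and -1.13). Kctd12, a subunit of GABA-B receptors, read 8.23, 8.31 and 8.56 on CDE, 6.82 ± 0.24 (mean and SD, n = 3) on DDC and 7.46 and 7.58 on UTR.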
